A study of Mus musculus with 204 samples.

Results

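The genes Sox10, Erbb3, S100b, Gfap, Fabp7 and Sox2, 6 of the 49492 genes in the deposited table, were followed as markers of enteric glia over every single cell of the series. They were chosen by name, and all 6 were in the table. The cells came from VGLUT2-tdTomato mice, from their distal colon; in these mice a red fluorescent protein reports Slc17a6, the gene of the vesicular glutamate transporter VGLUT2. Muscle layers holding the myenteric plexus were dissociated and kept in culture overnight, and red cells were then pipetted by hand, 1 cell per tube. The cells filled 3 plates, numbered 1, 2 and 3, with 66, 66 and 72 cells. All groups below share the reporter, the tissue and the overnight culture. The labels give no treatment, age, animal or culture for any cell, and do not say how the reporter is driven, so each plate counts as 1 sample and no test or p-value was computed. Every label calls its cell a neuron.

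That label was checked against a list of 13 pan-neuronal genes. A transcript counted as detected at 10 CPM (reads per 1000000 reads of the cell) or more, and a cell with at least 50% of the 13 genes is called neuronal below. By this rule 75.98% of cells were neuronal (55, 45 and 55 on plates 1, 2 and 3), and 49 were other cells (11, 21 and 17). Depth ranged from 453052 to 14310732 reads per cell, with medians of 4039407 in neuronal and 4090781 in other cells. Intervals are exact Clopper-Pearson 95% intervals unless named otherwise, and they cover counting error only. Those over all cells pool the plates and leave out differences between plates. Where a count was 0, the limit given in its place is the share that 3 cells would make, a rule that differs somewhat from the exact upper bound drawn in the figures.

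Enteric glia lie around the neurons of the gut plexuses and, like them, descend from the neural crest. Sox10 encodes a transcription factor of neural crest progenitors that is kept in glia and lost as neurons mature. Sox2 encodes a related transcription factor of progenitors and glia. Erbb3 encodes a receptor for neuregulins, the growth factors that glial precursors need. S100b encodes a calcium-binding protein, Gfap an intermediate filament protein that rises in activated glia, and Fabp7 a fatty acid binding protein of glia and their precursors. Each of these genes also occurs in other cell types, so the number of them in a cell was counted too.

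In mm10 with the GENCODE M21 annotation, the 6 protein-coding genes lie at chr15:79154908-79165240 (Sox10, minus strand), chr3:34650405-34652461 (Sox2, plus), chr10:128567523-128589652 (Erbb3, minus), chr10:76253853-76261159 (S100b, plus), chr11:102887336-102900912 (Gfap, minus) and chr10:57784881-57788450 (Fabp7, plus). Reads were counted per gene, so no exon or UTR can be singled out. S100b overlaps Dip2a and Gfap overlaps the long noncoding gene Gm26668, both on the opposite strand, and Sox2 lies within Sox2ot on the same strand. The strand setting of the counting is not given in the sources used here, so reads of these pairs cannot be told apart where they overlap. Dip2a was detected in 109 cells, Gm26668 in 46 and Sox2ot in 15.

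Upstream sequence was found for 4 of the 6 genes in RefSeq (GRCm38.p6, the assembly called mm10). It is shown for Sox2 and Fabp7, which were mostly found in cells with Sox10, and for S100b, which was often found without it. Gfap, the fourth gene found, was also mostly in cells with Sox10 (7 of its 10 cells). It was searched in the same way and is not shown. Each run goes from position -250 to -51 relative to the RefSeq start, 5′ to 3′ on the plus strand, at chr3:34649745-34649944, chr10:57784673-57784872 and chr10:76253586-76253785. Capitals mark the SOX-type motifs ACAAAG and ACAAT, searched on both strands and without overlap here.
Sox2: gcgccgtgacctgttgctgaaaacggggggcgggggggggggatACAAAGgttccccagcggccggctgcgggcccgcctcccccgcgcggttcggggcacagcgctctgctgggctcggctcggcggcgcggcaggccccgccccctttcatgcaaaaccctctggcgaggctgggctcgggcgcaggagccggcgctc
Fabp7: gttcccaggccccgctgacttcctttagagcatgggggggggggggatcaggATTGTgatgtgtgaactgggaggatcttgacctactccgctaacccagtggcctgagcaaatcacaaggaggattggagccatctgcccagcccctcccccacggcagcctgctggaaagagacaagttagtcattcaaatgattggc
S100b: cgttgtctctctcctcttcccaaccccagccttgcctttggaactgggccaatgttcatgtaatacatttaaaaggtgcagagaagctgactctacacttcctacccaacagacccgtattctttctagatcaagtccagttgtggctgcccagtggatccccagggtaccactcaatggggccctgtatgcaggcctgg
The Sox2 window holds ACAAAG at -206 to -201. The Fabp7 window holds ATTGT, the reverse complement of ACAAT, at -198 to -194. The S100b and Gfap windows hold neither. Of 32851 windows of the same length in that table, 13.6% hold ACAAAG and 23.7% hold ACAAT on either strand, so a match is a description of the letters only.

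Sox10 was detected in 38 cells (18.6% of all, interval 13.5 to 24.7%), with 15, 12 and 11 cells on plates 1, 2 and 3. Among those 38 cells it ranged from 11.7 to 1521 CPM with a median of 345.7 CPM. The median over all cells was 0.170 CPM. Most cells with the gene lay far above the threshold: 26 of the 38 had at least 100 CPM, a level chosen after the values were seen. Per length of gene it was also the most abundant of the 6 where detected, with a median of 127.4 RPKM (reads per kilobase and 1000000 reads) against 35.2 for Sox2, 16.0 for S100b, 14.0 for Fabp7, 12.5 for Gfap and 4.94 for Erbb3. The middle 50% of values was 21.2 to 260.2 RPKM for Sox10 and 13.6 to 99.8 RPKM for Sox2, so those ranges overlap. S100b (9.67 to 40.0 RPKM), Fabp7 (9.68 to 22.0 RPKM) and Gfap (7.44 to 31.6 RPKM) cannot be ordered by their spread, while Erbb3 (2.79 to 7.95 RPKM) overlapped only Gfap at its upper end.

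Neuronal and other cells both held Sox10, at levels that depended on the plate. It was detected in 22 neuronal cells (14.2%) and in 16 of 49 other cells (32.7%), a difference of 18.5 percentage points (Newcombe 95% interval 5.36 to 33.2). The difference was 5.45, 22.2 and 26.2 points on plates 1, 2 and 3. On plate 2 the 7 other cells with Sox10 had 335 to 1521 CPM (median 719), and the 5 neuronal cells had 11.7 to 640 CPM (median 53.2). On plate 3 the 6 other cells had 450.3 to 1383 CPM (median 1146), and the 5 neuronal cells had 27.5 to 1278 CPM (median 70.8). Those levels overlapped on both plates, though most of the neuronal cells lay below every other cell. Plate 1 went the opposite way: its 12 neuronal cells with Sox10 had 16.8 to 792 CPM (median 270.2) and its 3 other cells 12.4 to 184 CPM (median 41.1). The log2 ratio of mean CPM over all other cells to that over all neuronal cells, with 1 CPM added to each mean, was -1.55, 3.51 and 3.60 on plates 1, 2 and 3. Plates 2 and 3 share a library naming that plate 1 does not have.

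Sox2 was detected in the same number of cells, 38 (18.6%), with 10, 16 and 12 on the 3 plates, 25 of them neuronal and 13 other. Where detected it ranged from 10.9 to 1938 CPM with a median of 72.4 CPM. The highest cell, a non-neuronal cell of plate 3 that also held Sox10 at 1383 CPM, gave 27.7% of the Sox2 CPM summed over all cells. Its log2 ratio of other to neuronal cells, -1.02, 1.57 and 3.23 on plates 1, 2 and 3, had the signs that Sox10 had.

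Erbb3 was detected in 36 cells (17.6%, interval 12.7 to 23.6%), with 16, 15 and 5 on the plates. It was low throughout, from 12.8 to 226 CPM with a median of 29.7 CPM where detected. It was in 30 neuronal cells (19.4%) and 6 of 49 other cells (12.2%), a difference of -7.11 percentage points (Newcombe interval -16.6 to 6.07). The difference was -18.2, -5.40 and -1.39 points on plates 1, 2 and 3. On plate 3 Erbb3 was in 4 of 55 neuronal cells, against 15 of 55 on plate 1 and 11 of 45 on plate 2.

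S100b was detected in 30 cells (14.7%, interval 10.1 to 20.3%), with 17, 5 and 8 on the plates, 23 of them neuronal and 7 other. It ranged from 10.5 to 1108 CPM where detected, with a median of 23.7 CPM. A single neuronal cell of plate 1 held 9472 reads, 39.3% of the S100b CPM of the series, and a neuronal cell of plate 3 followed at 527 CPM; Sox10 was at 0 CPM in both. When a detection also needed 1% of the highest read count of the gene on the plate, plate 1 kept 6 of its 17 cells with S100b, and the share over all cells was 9.31%. The median S100b level of the plate 1 cells below the threshold was 0.135 CPM. The part of misassigned reads in the weak plate 1 detections was not tested.

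Gfap was detected in 10 cells (4.90%, interval 2.38 to 8.83%), 7 of them on plate 1, 2 on plate 2 and 1 on plate 3. It ranged from 16.0 to 282 CPM with a median of 52.9 CPM there. It was in 4.52% of neuronal cells and 6.12% of other cells, and in 0 of 45 neuronal cells on plate 2, which allows a share of up to 6.67%. Fabp7 was detected in 12 cells (5.88%, interval 3.08 to 10.0%), with 2, 4 and 6 on the plates, 7 of them neuronal and 5 other. It stayed between 10.5 and 101.7 CPM with a median of 17.5 CPM. At a threshold of 50 CPM Fabp7 would be found in 0.490% of cells.

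**Figure D1:**
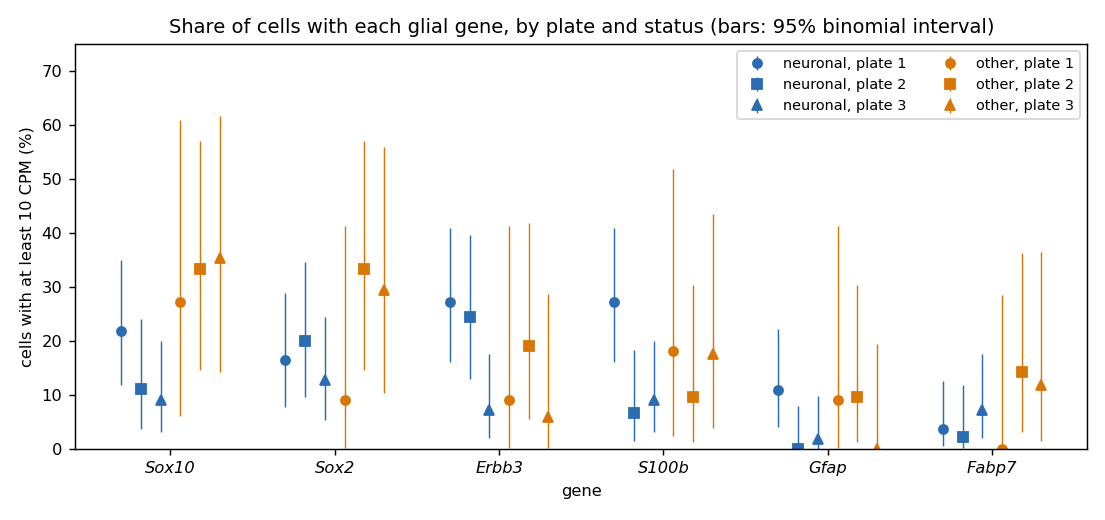
Share of cells with at least 10 CPM of each of the 6 genes (vertical axis, percent), for neuronal cells (blue) and other cells (orange) of plates 1, 2 and 3 (circle, square, triangle). Bars are exact 95% binomial intervals. The Sox10 share was 33.3% and 35.3% in other cells of plates 2 and 3 against 11.1% and 9.09% in neuronal cells, while on plate 1 it was 27.3% against 21.8%.

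Between other and neuronal cells, 0 of the 6 genes had a mean at least 2-fold higher in other cells on each plate. Of all 37635 genes with reads, 2.26% did, and 7.52% were at least 2-fold lower on each plate, also 0 of the 6 genes. Sox10 and Sox2 were more than 2-fold higher on plates 2 and 3 and not on plate 1.

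The number of these genes in a cell ranged from 0 to 5. None was detected in 56.9% of cells (32, 37 and 47 on plates 1, 2 and 3), 1 in 51 cells, 2 in 13, 3 in 13, 4 in 7 and 5 in 4. At least 3 were detected in 24 cells (11.8%, interval 7.68 to 17.0%), with 11, 8 and 5 on the plates. All 24 held Sox10, from 11.7 to 1521 CPM with a median of 455.3 CPM, and 22 held Sox2. Erbb3 and S100b were each in 13 of the 24, Fabp7 in 8 and Gfap in 7. The most frequent combination was Sox10 with Erbb3 and Sox2 alone, in 6 cells.

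If the 6 genes were spread over the cells of a plate without regard to each other, the product of their single shares would give 85.7 cells with none, 80.2 with 1, 31.1 with 2 and 6.94 with 3 or more. The last of these were observed in 51, 13 and 24 cells, and cells with none were 1.35 times the product. Cells with 3 or more were thus 3.46 times the product, at 2.81, 3.92 and 5.08 times on plates 1, 2 and 3, and 4 or more were seen in 11 cells against 0.696. For at least 2 genes, the number fixed for this comparison, 37 cells stood against 38.1, a ratio of 0.972 (0.791, 0.968 and 1.38 on the plates). Cells with exactly 2 were 0.418 times and cells with exactly 1 were 0.636 times the product. With shares taken within plate and status, the ratio for 3 or more was 3.12. These ratios are a description, without a test.

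**Figure D2:**
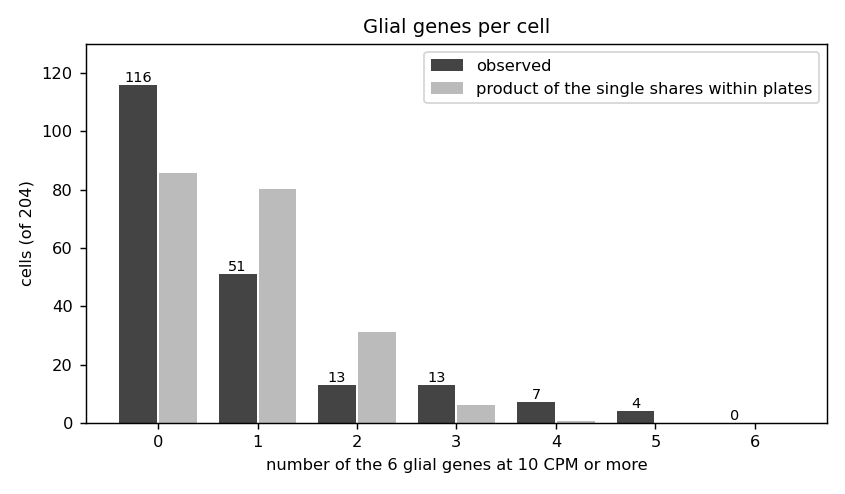
Number of cells (vertical axis) by how many of the 6 genes were detected (horizontal axis). Dark bars are observed counts, and light bars are the counts that the product of the single shares within plates gives. Observed cells exceed the product at 0 genes and at 3, 4 and 5 genes, and lie below it at 1 and 2.

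Sox10 and Sox2 were found together most often. Both were detected in 28 cells, 73.7% of the 38 cells of each gene, or 3.99 times the product of their shares within plates, with 10, 10 and 8 cells on the plates. Pearson's r of their log2(CPM + 1), centred on each plate, was 0.79 over all cells, which share plates and differ in depth. It was 0.71 in neuronal and 0.89 in other cells. Of the 26 cells with at least 100 CPM of Sox10, 25 held Sox2, against 3 of the 12 cells with 10 to 100 CPM. In the 10 cells with Sox2 and no Sox10, all neuronal, the median Sox2 level was 27.4 CPM, against 145.2 CPM in the 28 cells with both.

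Gfap and Fabp7 were rare and mostly came with Sox10. Sox10 was in 7 of the 10 Gfap cells (3.32 times the product) and in 8 of the 12 Fabp7 cells (3.81 times). S100b was found with Gfap in 6 cells, which is 60% of Gfap cells and 20% of S100b cells. S100b and Fabp7 also shared 6 cells, 50% of the Fabp7 cells and 4.04 times the product. Gfap and Fabp7 were together in 1 cell.

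Erbb3 and S100b followed Sox10 less closely. Sox10 was in 13 of 36 Erbb3 cells (1.82 times the product) and in 14 of 30 S100b cells (2.34 times). Erbb3 and S100b themselves shared 6 cells, 1.03 times the product, with an r of -0.03 (-0.13 in neuronal and 0.30 in other cells). With Sox10, r was 0.23 in neuronal and 0.54 in other cells for Erbb3, and 0.19 and 0.50 for S100b. Erbb3 was the only 1 of the 6 genes in 19 of its 36 cells, 18 of them neuronal, and S100b in 13 of its 30 cells, 12 of them neuronal. Where detected, Erbb3 had a median of 28.7 CPM with Sox10 and 33.8 CPM without it, but the plates differed: 18.9 and 47.2 CPM on plate 1, 31.3 and 27.5 on plate 2, and 66.8 and 33.8 on plate 3, where 2 and 3 cells were compared. S100b had a median of 21.1 CPM with Sox10 and 27.2 CPM without it, with 17.1 and 13.6 CPM on plate 1, 58.7 and 24.3 on plate 2 (1 cell without Sox10) and 41.7 and 51.0 on plate 3. Neither gene thus had 1 direction on all plates.

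**Figure D3:**
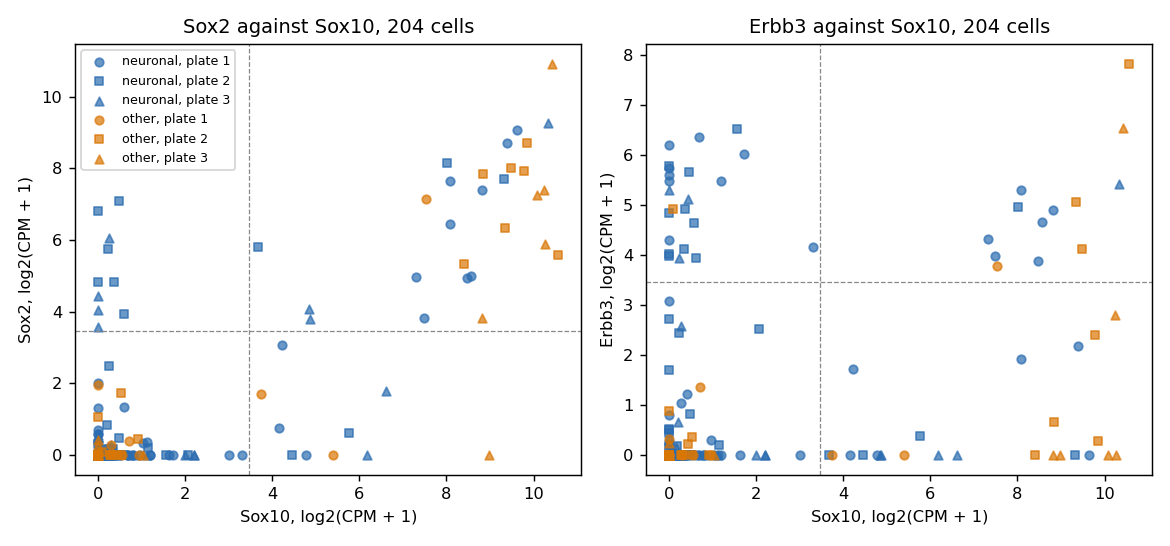
Sox2 (left) and Erbb3 (right) against Sox10 in all cells, as log2(CPM + 1), with neuronal cells in blue, other cells in orange and a symbol for each plate. Dashed lines mark 10 CPM. With Sox2, 28 cells lie in the upper right field and 10 in each of the fields with 1 gene, while 23 of the 36 Erbb3 cells lie to the left of the Sox10 line.

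The Erbb3 cells without Sox10 carried neuronal and few glial transcripts. Of these 23 cells 22 were neuronal, Slc17a6 was in 16, and Chat, the acetylcholine synthesis enzyme, was in 19. Cdh19, a cadherin of glia and Schwann cell precursors, was in 0 of them, which allows a share of up to 13.0%. The 16 S100b cells without Sox10 were alike in this: 15 were neuronal, Slc17a6 was in 12 and Cdh19 in 0, which allows up to 18.8%. In neuronal cells with none of the 6 genes, Slc17a6 was in 47 of 86 (54.7%), Chat in 60 (69.8%) and Cdh19 in 0.

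Neuronal status split the 24 cells with at least 3 of the 6 genes into 13 neuronal and 11 other cells. That was 8.39% of neuronal and 22.4% of other cells, a difference of 14.1 percentage points (Newcombe interval 3.18 to 27.9). The difference was 1.82 points on plate 1 (9 of 55 against 2 of 11), 17.1 on plate 2 (3 of 45 against 5 of 21) and 21.7 on plate 3 (1 of 55 against 4 of 17). It hung on where neuronal cells were divided from others. With 25% of the pan-neuronal list as the threshold it was -4.17 points, with 12.5% of neuronal and 8.33% of other cells, since 8 of the 13 cells with 4 to 6 pan-neuronal genes (61.5%, interval 31.6 to 86.1%) held at least 3 of the glial genes. The share was 3 of 36 in cells with 0 to 3 pan-neuronal genes, 2 of 6 with 7 to 9 and 11 of 149 with 10 to 13. Those bins were chosen after the values were seen.

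The 11 other cells with at least 3 glial genes held a small set of the pan-neuronal genes. Uchl1, a ubiquitin hydrolase of neurons, was in all 11 at 106.6 to 452.1 CPM, the microtubule protein gene Map2 in 9 and the growth cone gene Gap43 in 7. Of the 30 other cells with none of the 6 genes, Uchl1 was in 18, Map2 in 1 and Gap43 in 4. The synaptic gene Syt1 and the RNA-binding protein genes Elavl3 and Elavl4 were detected in 0 of the 11 cells, which allows up to 27.3%, and Stmn2 was in 3, at 1.17 to 27.4 CPM over the 11. In the 13 neuronal cells with at least 3 glial genes, Stmn2 ranged from 10.2 to 6464 CPM (median 539), Syt1 and Syn1 were each in 11, and Slc17a6 was in 5, against 0 of the 11 other cells. Several glial genes were thus found both in cells with and in cells without the neuronal list. Whether a tube held more than 1 cell was not tested.

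**Figure D4:**
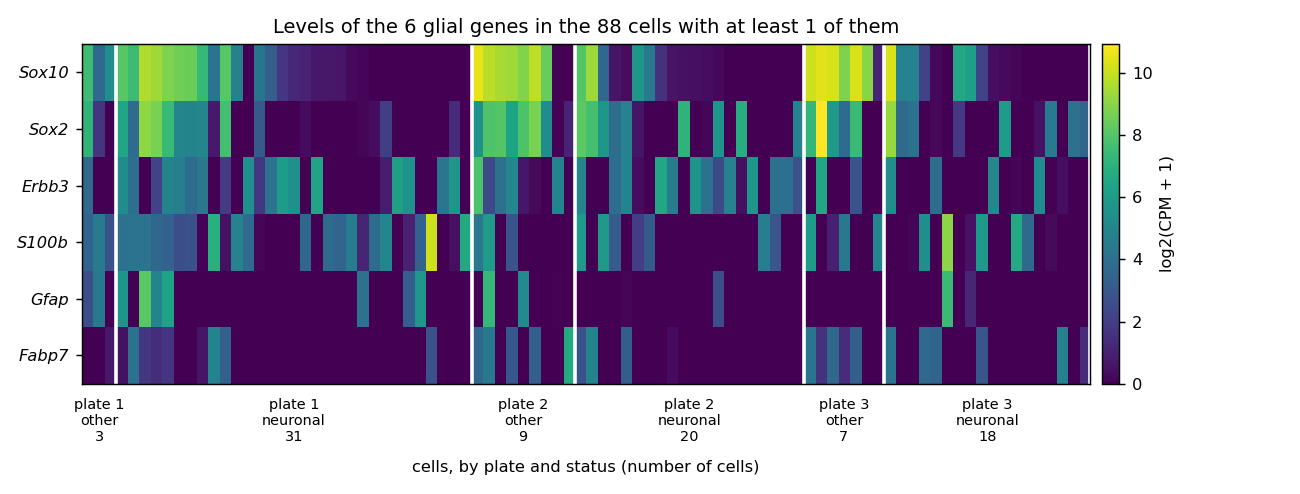
Level of each of the 6 genes (rows) as log2(CPM + 1) in the 88 cells with at least 1 of them (columns), ordered by plate, status and number of genes. Bright Sox10 and Sox2 entries stand at the left of each block, and the Erbb3 and S100b entries of neuronal cells extend beyond them.

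Other glial genes were then read in the same cells. A list of 20 genes, none of them among the 6, was compared between the 24 cells with at least 3 of the 6 and the cells with none. In the first a median of 8.5 of them reached 10 CPM (1 to 12), the 64 cells with 1 or 2 of the 6 had 3 (0 to 10), and the cells with none had 2 (0 to 6). Summed over the 20 genes, the level was 68.2 to 6102 CPM (median 1455) in the first and 0 to 1762 CPM (median 123.5) in the last. Much of that sum came from 1 gene, Ngfr, with a mean of 1490 CPM in the first and 152.9 CPM in the last. Median depth was 4980597 reads in the first, 3439918 in the cells with 1 or 2 and 4156839 in the cells with none.

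Cdh19 was in 18 of the 24 cells (75%) and in 0 of the cells with none, which allows up to 2.59%. Foxd3, a neural crest transcription factor, was in 13 of the 24 and in 0 of the cells with none. Ngfr, the p75 neurotrophin receptor of crest-derived cells, was in 22 of 24, but also in 61 of the cells with none (52.6%). Entpd2, an ectonucleotidase of enteric glia, was in 12 of 24 (50%) and in 3 of the cells with none (2.59%). Matn2 (20 of 24), Plekhb1 (17) and Ttyh1 (16) were frequent too, against 22.4%, 22.4% and 11.2% of the cells with none. Cdh19 in the cells with at least 3 averaged 19.4, 85.6 and 182.05 CPM on plates 1, 2 and 3, against 0.172, 0.0314 and 0.00907 CPM in the cells with none.

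Of the 20 genes, 11 had means at least 2-fold higher on each plate, against 0.949% of all 37635 genes, and 0 were at least 2-fold lower on each, against 3.12%. The median log2 ratio, averaged over the plates, was 2.25 for the list and -0.09 for all genes. They included Cdh19 (log2 ratio 6.00), Foxd3 (5.15), Entpd2 (4.30), Ngfr (3.39), Col28a1 (3.76), Lgi4 (4.19), Scn7a (2.01), Plekhb1 (2.74), Matn2 (2.48) and Ttyh1 (3.54). With median in place of mean CPM, 10 of the 20 were higher on each plate, against 1.93% of all genes, and 63.5% of all genes past 2-fold were higher ones, where means gave 23.3%. Without the highest cell of each plate Col28a1 and Scn7a no longer passed. The other 9 had mixed signs or low levels. Ednrb, the endothelin receptor of crest cells, was at -3.08, 0.19 and 3.07 on plates 1, 2 and 3. Gfra3 was detected in 0 cells of the whole series, the 24 included.

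**Figure D5:**
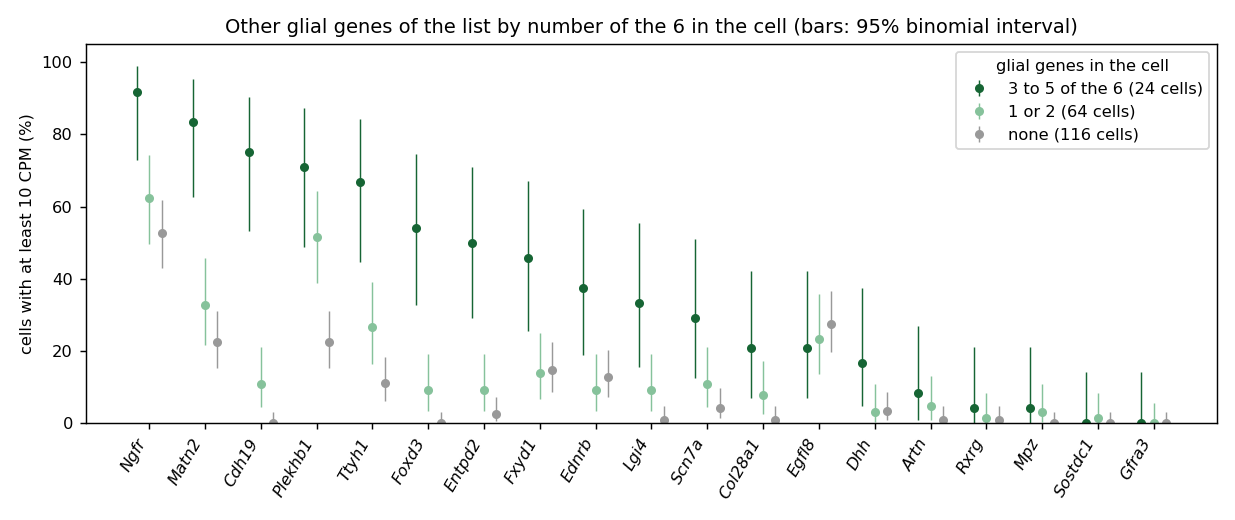
Share of cells with at least 10 CPM (vertical axis, percent) for other glial genes of the list, in cells with 3 to 5 of the 6 genes (dark green), with 1 or 2 (light green) and with none (grey). Bars are exact 95% binomial intervals. Cdh19 stands at 75%, 10.9% and 0%, and Foxd3 at 54.2%, 9.38% and 0%.

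The comparison was repeated within each status, an alternative added after the data were seen. Among neuronal cells, on plates 1 and 2 with 9 and 3 cells against 24 and 25, 9 of the 20 genes were at least 2-fold higher on each plate (all genes 2%) and Egfl8 was lower (all genes 6.1%). Cdh19 had log2 ratios of 4.24 and 5.67 on the 2 plates. Without the highest cell on each plate, 3 of the 9 still passed, Cdh19 and Entpd2 among them. In the same neuronal comparison 6 of 13 pan-neuronal genes and 4 of 6 endothelial genes were lower on both plates, as was 1 of 6 leukocyte genes. Of the 7 fibroblast genes 2 were higher (Col1a1 and Dpt), as were 2 leukocyte genes (Cd68 and Lyz2), 0 of them without the highest cells. On plate 1, 3 of the 9 neuronal cells with at least 3 glial genes held all 7 fibroblast genes and 5 or 6 of the 8 smooth muscle genes. The part of these transcripts in the result was not tested. Among other cells, on plates 2 and 3 with 5 and 4 cells against 12 and 10, 11 of the 20 were higher (all genes 3.41%), and 0 were lower (all genes 4.52%). Of these 11, Entpd2, Scn7a and Dhh did not pass without the highest cell of each plate. In the same comparison of other cells all 8 smooth muscle genes, 5 of 6 leukocyte, 3 of 5 pericyte and 2 of 7 fibroblast genes were at least 2-fold lower on both plates. The pan-neuronal genes Tubb3, Uchl1, Gap43 and Map2, 4 of 13, were higher on both. Ngfr averaged 1832 and 2789 CPM in those cells with at least 3 glial genes against 1.505 and 6.24 CPM in those with none.

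Further lists describe what else these 24 cells held. Among intermediate filament partners of Gfap, Vim and Nes were higher on each plate (log2 ratios 2.32 and 3.86), and of the S100 relatives S100a16 was (1.67). Of the 7 enteric lineage genes Zeb2 was higher (1.83), and the lower ones included the receptor gene Ret, Phox2a and Tbx3 (-3.81, -4.32 and -1.52). The neuronal genes Elavl4, Snap25 and Syt1 were lower too (-4.28, -2.94 and -3.03). Of the 8 myelin and Schwann cell genes, the 7 neuregulin and ErbB genes and the 5 melanocyte genes, 0 were higher on each plate; since 0.949% of all genes were, a count of 0 sets these lists apart in no way. The smooth muscle list was carried (at least 50% of its genes) by 13 of the 24 cells and by 28.4% of the cells with none. The fibroblast list was carried by 20.8% and 10.3%, the endothelial list by 12.5% and 8.62%, the leukocyte list by 8.33% and 6.90% and the pericyte list by 4.17% and 4.31%. Their part in the glial counts was not tested beyond leaving such cells out: of the 120 cells that carried none of these 5 lists, 10 held at least 3 glial genes, 5 of them neuronal and 5 of them among the 9 other cells. Of the 8 smooth muscle genes only Lmod1 was at least 2-fold lower on each plate in the 24 cells than in the cells with none. Of the 5 pericyte genes 2 were lower in this way (Kcnj8 and Abcc9), and of the 6 leukocyte genes 3 (Csf1r, Lyz2 and Cd52). Among all genes 3.12% were. The other genes of these lists were past 2-fold on every plate in neither direction.

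Gfap was often found in cells with cell cycle genes. Of 6 cell cycle genes at least 3 were detected in 10 cells, of which 6 held at least 3 glial genes and 5 held Gfap, all 5 with Sox10. Those 5 cells lay on plates 1 and 2, most of them on plate 1. Of the 31 cells with Sox10 and no Gfap, 1 carried that many cell cycle genes. Of the list, Birc5 was at least 2-fold higher on each plate in cells with at least 3 glial genes (log2 ratio 2.54), which did not hold without the highest cells.

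The genes most like each of the 6 were ranked by r of plate-centred log2(CPM + 1) over all cells, among 13086 genes detected in at least 10 cells. These r values describe cells that share plates and libraries. Sox10 was followed by Cdh19 (0.82), Slc35f1 (0.77), Nkd2 (0.77), the crest transcription factor gene Tfap2a (0.75) and the Wnt antagonist gene Sfrp1 (0.74). Sox2 was followed by Cdh19 (0.78), Foxd3 (0.77), Slc35f1 (0.70), the GDNF receptor gene Gfra1 (0.70) and Igsf11 (0.69). The genes closest to Fabp7 included Cdh19 (0.48), Nkd2 (0.46), Greb1 (0.45) and Sfrp1 (0.44). Cdh19 was thus in the top 5 of 3 of the genes, and with the mean r over all 6 it stood first (0.49).

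Erbb3, S100b and Gfap had weaker and different neighbours. Erbb3 was followed by Lgi4 (0.43), which encodes a secreted protein of Schwann cells, Steap3 (0.42), Fut9 (0.41), Tfap2a (0.40) and P3h2 (0.38). Gfap was followed by the mitotic kinase gene Aurkb (0.65), Slc43a3 (0.47), Mms22l (0.46), the replication gene Mcm5 (0.46) and Foxd3 (0.46). S100b had no neighbour above 0.36, and its closest included Nrn1 (0.36), Apod (0.32), the ribosomal RNA gene Rn18s.rs5 (0.29) and Tusc5 (0.29).

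By the mean r over the 6 genes, the genes after Cdh19 included Tfap2a (0.45), Slc35f1 (0.44), Foxd3 (0.44), Greb1 (0.43), Nkd2 (0.43), Sfrp1 (0.43), Igsf11 (0.42) and Slitrk6 (0.41). Gdnf (0.40), which encodes the ligand of Ret, Megf10 (0.39), Lgi4 (0.39), Klk8 (0.39) and Rgs16 (0.38) were also among the first 15. Of these 15 genes 4 were in the list of 20 other glial genes.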

How the data were processed

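The deposited values are log2(RPKM + 1) per gene and cell, and base and offset were read from the values. The submitters' processing notes name mm10; the aligner, counting tool and its use of strand are not given in the sources used. The kit marks each well (i7) and plate (i5), without molecular identifiers, per the labels' protocols, so reads, not molecules, were counted. Whole reads were recovered for 100% of 2375655 values above 0 (tolerance 1e-04), with GENCODE M21 exon lengths for 31316 genes and the smallest length giving whole reads for 6319 (Sox10 among the latter). On simulated cells 100% of values were recovered. The design had assumed counts, and its CPM thresholds were kept. The design gave each plate as 1 sample, so no count test was run.

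Every cell was kept, and no doublet caller was run on hand-picked cells. Of 6846 pairs of cells within plates, the lowest chi-square per degree of freedom was 5.51, so none agreed within sampling noise. Log2 ratios are of mean CPM + 1 within plates with at least 3 cells of each class, and understate low genes. Named genes were the 6 genes, in each of 20 lists the 4 members found in most cells and those past 2-fold on every plate, the 5 genes most like each of the 6 and the 15 most like them on average; mitochondrial, ribosomal protein, Rik and Gm genes were left out of the last 2 kinds. List genes chosen only for being frequent are mostly left unnamed, and some genes that these rules picked are not reported here, though counts over a list include them. The 6 genes and all lists were chosen with earlier results of these data known. Alternatives were other thresholds, depths, plates, lists and ratios. Python 3.11.15, numpy 2.4.6, pandas 2.3.3, SciPy 1.17.1 and matplotlib 3.10.9 were used.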

Additional observations from a re-analysis of the deposited data

How the results depend on the processing

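No paired analysis was possible because no comparison had a test and the cell numbers of different plates share only a number. The share of cells with at least 3 of the 6 genes (11.8%) was 2.94% at a threshold of 50 CPM and 6.37% without Sox2, and the share with at least 2 was 18.1% and with at least 4 was 5.39%. Leaving out a plate gave 9.42 to 14.4%. The difference between other and neuronal cells (14.1 points) was -4.17 with neuronal status at 25% of the list and 51.1 without cells carrying a smooth muscle, fibroblast, endothelial, pericyte or leukocyte list, where 9 other cells were left; without 1 plate it was 9.88 to 19.7. The ratio of observed cells with at least 2 genes to the product (0.972) was 2.28 at 50 CPM and 3.46 for at least 3 genes, and 0.864 to 1.13 without 1 plate. The cause of these shifts was not tested, apart from the neuronal threshold. Under it the 13 cells with 4 to 6 pan-neuronal genes changed side, 8 of them with at least 3 glial genes. The 1533 genes past 2-fold on every plate (357 higher, 1176 lower, 23.3% of them higher) were 3111 with a pseudocount of 0.1 (14.6% higher), 511 with 10 (35.4% higher), 224 at a fold of 4 (40.6% higher), 1146 with medians (63.5% higher), 3050 in neuronal cells only and 2984 in other cells only (43.0% higher), the last 2 on 2 plates each. Of the 20 other glial genes, 7 to 11 were higher under all of these. Thinning each cell to 453052 reads and leaving out the 19 cells under 1000000 reads kept all 3 values within their intervals or plate spread. The alternatives without cells of other types, for at least 3 genes and within status were chosen after seeing the data. In the shallowest cells 10 CPM is a handful of reads, so absence there is not shown.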
